A study of Mus musculus with 33 samples.

Results

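The regions described here were listed as KOD in both the heart and the forebrain of E11.5 mouse embryos and as open in mouse embryonic stem (mES) cells. They were chosen by the deposited state lists themselves, as bins of 10 kb on chromosomes 1 to 19 with that combination of states, and adjacent bins were joined. This gave 1545 regions of 8410 bins, or 84.1 Mb of a map of 240077 bins (2401 Mb), of which 195090 bins carried a state in all 3 sources. CUT&RUN, in which an antibody directs a nuclease to cut out the DNA it marks, was run with antibodies to dimethylated lysine 9 of histone H3 (H3K9me2), to Lamin B1 of the nuclear lamina, or with control IgG, in 33 libraries with 3 biological replicates of H3K9me2 and of Lamin B1 in each source. Hearts were whole organs and forebrains were right lobes, both from wild-type C57BL/6 embryos pooled by litter, and the mES cells were 1 cultured C57BL/6 line, moved from feeder fibroblasts to medium with LIF and 2 inhibitors. The domain lists hold 1 map per source with the replicates merged, and the spread between replicates is unknown. The errors given are standard errors from leaving out 1 chromosome at a time (jackknife, n = 19 chromosomes, or 18 for promoters), and the number of chromosomes that show a direction is given beside a difference. Because both tissues and the stem cells are bulk samples, a state held by more of the cells and a state held more strongly per cell cannot be told apart. The lists carry no expression values, so gene activity is unknown here and the labelled sources could not be checked against marker genes.

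H3K9me2 is laid down chiefly by the enzymes G9a and GLP and is a mark of repressed chromatin. Much of it lies in lamina-associated domains (LADs), long gene-poor stretches that touch the nuclear envelope. The depositors list 3 states per source, LAD, KOD and open, which do not overlap, and the labels do not spell out KOD. Promoters that are rich in CpG dinucleotides are typical of housekeeping and developmental genes, and promoters poor in CpG are typical of genes used in few tissues. A microRNA (miRNA) represses messenger RNAs that pair with its seed, bases 2 to 8 from its 5′ end.

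The sequences below are examples of promoters and miRNAs that lay in the regions. Promoters run from 250 bases before to 50 bases after the start of transcription, are from RefSeq (GRCm38.p6, the assembly of mm10) and are written 5′ to 3′ on the strand of the gene, with CpG dinucleotides in capitals. Bnip2, a partner of the cell-death regulator Bcl-2, stands first in the longest region. Hoxd1 and Dlx1 encode homeobox transcription factors of body patterning and of forebrain interneurons. Krt24 encodes an epithelial keratin and has the fewest CpG of the 7 promoters examined.
Bnip2, chr9:69989216-69989515, plus strand: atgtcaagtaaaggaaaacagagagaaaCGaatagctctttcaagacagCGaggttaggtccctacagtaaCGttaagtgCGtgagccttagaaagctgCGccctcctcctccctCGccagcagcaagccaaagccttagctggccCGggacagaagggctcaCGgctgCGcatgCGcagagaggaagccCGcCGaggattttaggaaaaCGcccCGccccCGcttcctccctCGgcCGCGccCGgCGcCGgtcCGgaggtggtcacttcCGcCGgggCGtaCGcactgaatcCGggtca
Hoxd1, chr2:74762730-74763029, plus strand: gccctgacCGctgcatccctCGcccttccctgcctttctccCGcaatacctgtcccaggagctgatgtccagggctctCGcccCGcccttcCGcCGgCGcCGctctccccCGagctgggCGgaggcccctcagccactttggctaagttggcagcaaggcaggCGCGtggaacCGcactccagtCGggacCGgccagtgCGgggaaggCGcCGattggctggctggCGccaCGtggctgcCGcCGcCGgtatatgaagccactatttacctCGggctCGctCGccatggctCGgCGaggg
Dlx1, chr2:71529195-71529494, plus strand: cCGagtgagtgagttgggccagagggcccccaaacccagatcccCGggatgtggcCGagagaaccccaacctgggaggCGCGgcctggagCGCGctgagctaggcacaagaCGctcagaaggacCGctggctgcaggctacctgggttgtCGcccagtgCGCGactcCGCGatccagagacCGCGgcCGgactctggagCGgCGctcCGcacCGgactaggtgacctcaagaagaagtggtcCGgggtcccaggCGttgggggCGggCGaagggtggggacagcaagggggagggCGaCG
Krt24, chr11:99285213-99285512, minus strand: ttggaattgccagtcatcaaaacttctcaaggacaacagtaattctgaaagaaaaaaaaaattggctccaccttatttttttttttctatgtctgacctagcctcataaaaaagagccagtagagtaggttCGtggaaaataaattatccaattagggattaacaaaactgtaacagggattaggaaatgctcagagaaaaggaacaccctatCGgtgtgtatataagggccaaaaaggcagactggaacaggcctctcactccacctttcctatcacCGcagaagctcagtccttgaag
These 300 bases held 27 CpG in Bnip2, 29 in Hoxd1, 27 in Dlx1 and 3 in Krt24. The GC content was 61.3% in Bnip2, 69.7% in Hoxd1, 69.3% in Dlx1 and 39.7% in Krt24. The first 3 are CpG-rich by the definition used below, and Krt24 is not.

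Mature miRNAs from the regions are shown with the seed in capitals. They were chosen after the states had been seen, as well-studied miRNAs or as miRNAs with a second gene copy outside the regions.
miR-9-5p of Mir9-1, chr3:88215613-88215635, plus strand: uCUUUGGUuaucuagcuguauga
miR-7a-5p of Mir7-1, chr13:58392841-58392863, minus strand: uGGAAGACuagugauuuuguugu
miR-219a-5p of Mir219a-1, chr17:34025052-34025072, minus strand: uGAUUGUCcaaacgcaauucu
miR-15a-5p of Mir15a, chr14:61632075-61632096, minus strand: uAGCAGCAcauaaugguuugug
miR-16-5p of Mir16-1, chr14:61631936-61631957, minus strand: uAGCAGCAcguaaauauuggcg
miR-21a-5p of Mir21a, chr11:86584120-86584141, minus strand: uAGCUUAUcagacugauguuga
miR-144-3p of Mir144, chr11:78073047-78073066, plus strand: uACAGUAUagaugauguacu
miR-15a-5p and miR-16-5p share the seed AGCAGCA, and the other 5 have a seed each.

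The first question was how much of the open chromatin of mES cells carried this combination of states in both tissues. The regions made up 3.50% ± 0.696 of the map and 11% ± 1.90 of the 762 Mb listed as open in mES cells. They were 19% ± 2.64 of the 443 Mb of heart KOD and 20.4% ± 2.42 of the 413 Mb of forebrain KOD. Of all bins with a state in both heart and mES cells, 6.64% were KOD in heart and open in mES cells, and the like share for forebrain was 6.38%. Both held in 4.31% of the bins with a state in all 3 sources. Of the bases KOD in heart and open in mES cells, 62.3% ± 4.65 were also KOD in forebrain, and of those KOD in forebrain and open in mES cells, 62.6% ± 3.43 were also KOD in heart. The rule picks out the joint part of both, so these shares describe it and are no evidence that it exceeds chance. A further 46.4 Mb were KOD in heart alone with forebrain and mES cells open, and 46.3 Mb were KOD in forebrain alone with heart and mES cells open. The opposite combination, open in both tissues and KOD in mES cells, covered 64.0 Mb in 1400 stretches, or 15.2% ± 1.54 of mES KOD.

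Most regions were short, while most of their bases lay in the longer ones. The median length was 30 kb, the quartiles were 20 and 70 kb, and the range was 10 to 450 kb. A single bin made up 379 regions (24.5%). The 600 regions of at least 50 kb held 76.9% of the bases, the 248 of at least 100 kb held 49.3%, and the 15 of at least 300 kb held 6.20%. Stretches of the opposite combination also had a median of 30 kb, and stretches open in all 3 sources had a median of 90 kb. Taking 20 kb off both ends of every deposited domain left 40.7 Mb in 600 regions, so about as much of the total lay within 20 kb of a domain end as farther inside.

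**Figure D1:**
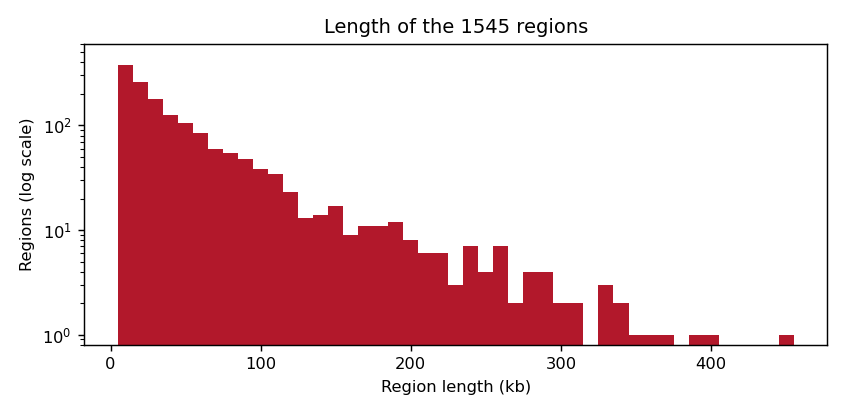
Number of regions (vertical axis, log scale) by length in kb (horizontal axis, bins of 10 kb) for the 1545 regions KOD in heart and forebrain and open in mES cells. Counts fall from 379 regions of 10 kb to a single region of 450 kb.

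The regions were unevenly spread over the chromosomes. Chromosome 11 held 263 regions and 16.8 Mb, which was 20.0% of all region bases and 31.5% of the mES open bases of that chromosome. Chromosome 9 followed with 20.5% of its mES open bases, then chromosome 19 with 18.7%, chromosome 5 with 14.6% and chromosome 4 with 13.9%. These 5 chromosomes made up 25% of the map and held 53.2% of the region bases. At the low end, chromosome 10 held 25 regions and 0.780 Mb, or 1.93% of its mES open bases, and chromosome 3 had 3.06%. Heart KOD of any kind took up 39.3% of chromosome 11, 44.1% of chromosome 19 and 30.1% of chromosome 9, against 18.5% of the map. It took up 17.2% of chromosome 5, 15.7% of chromosome 4, 10.3% of chromosome 10 and 5.44% of chromosome 3. Forebrain KOD ranged from 20.0% to 39.0% on the 5 leading chromosomes, against 17.2% of the map. The opposite combination was ordered differently, with 31.2% of mES KOD on chromosome 12 and 4.32% on chromosome 19. The regions covered more bases than the opposite combination on 9 of 19 chromosomes. Without chromosome 11 the regions covered 67.3 Mb.

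**Figure D2:**
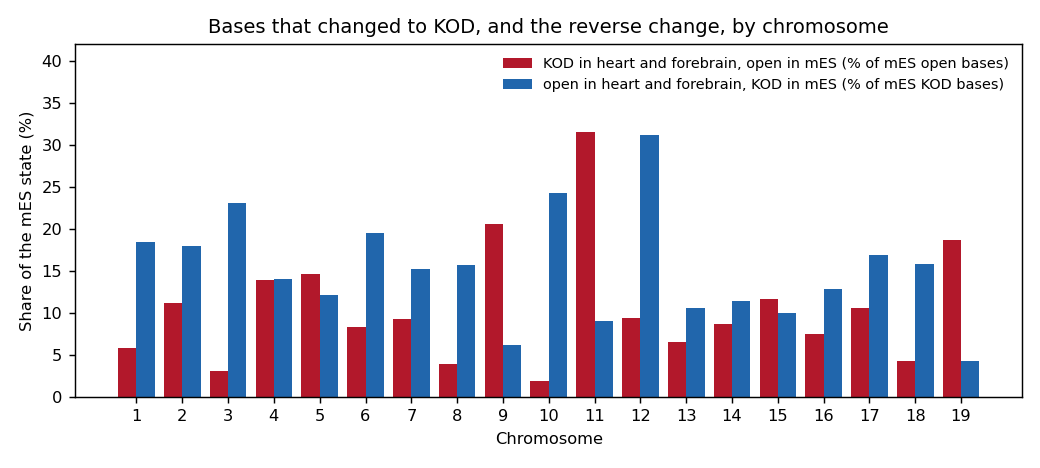
Share of mES open bases that were KOD in heart and forebrain (red) and share of mES KOD bases that were open in heart and forebrain (blue), in percent, on each of the 19 chromosomes. The red bar is highest on chromosome 11 at 31.5%, and the blue bar is highest on chromosome 12 at 31.2%.

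Within chromosomes the regions were gathered in a few stretches. Of 501 windows of 5 Mb, 291 held no region, 30 held 50% of the region bases, and the 20 densest held 38.6%. Windows were singled out after their values had been seen. The densest were on chromosome 11, where 75000001 to 80000000 held 2.30 Mb in 29 regions with 37 protein-coding genes, and 95000001 to 100000000 held 2.30 Mb in 24 regions with 56 genes. The second of these includes Dlx3, Dlx4, Hoxb13, Hoxb2, Hoxb1, Tbx21 and a block of keratin genes. Chromosome 4 from 130000001 to 135000000 held 2.10 Mb in 25 regions.

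The longest regions, 9 of the 10 longest, show what the stretches contain, with positions in mm10. The longest, of 450 kb, was chr9:69930001-70380000 and contained Bnip2, Gtf2a2, Gcnt3 and Fam81a, of which Gtf2a2 encodes a subunit of the general transcription factor TFIIA. It lay in a heart KOD of 940 kb, a forebrain KOD of 890 kb and an mES open stretch of 890 kb, and 330 kb of each tissue KOD was KOD in mES cells as well. The next, chr11:84910001-85310000, spanned 400 kb with Znhit3, Car4, Usp32, 1700125H20Rik and Appbp2, and Car4 encodes a membrane-bound carbonic anhydrase. Here the heart KOD was the region itself at 400 kb, the forebrain KOD was 460 kb, the mES open stretch was 900 kb, and neither KOD held any mES KOD. The KODs around chr17:28450001-28840000 (390 kb) held no mES KOD either, and measured 610 kb in heart and 390 kb in forebrain, and the mES open stretch measured 1710 kb. That region held 9 genes, the first being Armc12, Clpsl2, Clps, Lhfpl5, Srpk1 and Slc26a8, and Clps encodes pancreatic colipase while Srpk1 is a kinase of splicing factors.

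The region chr11:99050001-99420000 (370 kb) held Tns4, Ccr7, Smarce1, Krt222, Krt24 and Krt25 among 10 genes, in a heart KOD of 1320 kb and a forebrain KOD of 1600 kb, and 840 kb of each was KOD in mES cells. Ccr7 encodes a chemokine receptor of lymphocytes and Smarce1 a subunit of SWI/SNF chromatin remodelling complexes. The region chr9:59260001-59620000 (360 kb) held Adpgk, Bbs4, Arih1, Tmem202, Hexa and Celf6, and Hexa encodes a lysosomal hexosaminidase. Both of the 340 kb regions, chr4:134100001-134440000 with 14 genes and chr9:71790001-72130000 with Tcf12, covered the whole of their mES open stretch. Tcf12 encodes a bHLH partner of tissue-specific transcription factors. The region chr4:133720001-134050000 (330 kb) held Lin28a, an RNA-binding protein of pluripotent cells, with Rps6ka1, Hmgn2 and Dhdds. The region chr5:122770001-123100000 (330 kb) held Anapc5, Rnf34, Kdm2b, Orai1 and Morn3, and its heart KOD of 330 kb and forebrain KOD of 350 kb held no mES KOD. A further region of 330 kb, on chromosome 12, had the same length as these last ones.

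The bins next to the regions were mostly KOD or open and almost never LAD. Of 3090 region ends, 1033 (33.4%) had KOD in all 3 sources in the next bin. At 926 ends (30.0%) forebrain was still KOD while heart and mES cells were open, and at 704 ends (22.8%) heart was still KOD while forebrain and mES cells were open. All 3 sources were open beside 278 ends (9%). A LAD in any source lay beside 26 ends (0.841%), although LADs took up 40.1% of the map in heart, 44.0% in forebrain and 43.6% in mES cells. At 200 kb from the ends, 57.6% of bins were KOD in heart and 57.8% in forebrain, against 34.1% in mES cells, and LAD had 1.17% in heart, 0.777% in forebrain and 2.07% in mES cells. Over the whole map, KOD made up 18.5% in heart, 17.2% in forebrain and 17.5% in mES cells. The rule places every region inside a heart KOD and a forebrain KOD, so tissue KOD beside the regions follows in part from the rule. Flanks of other stretches were not compared.

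**Figure D3:**
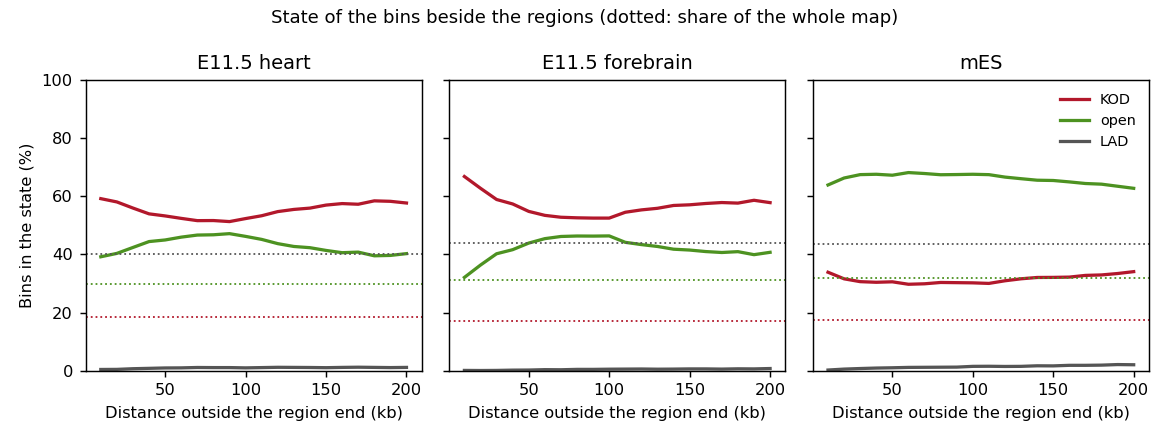
Share of bins that were KOD (red), open (green) or LAD (grey) by distance outside the region ends, 10 to 200 kb, in heart, forebrain and mES cells, with the share over the whole map as dotted lines. KOD stays above its map share in all 3 sources, and LAD stays near 0. KOD has 59.1% in heart, 66.8% in forebrain and 33.9% in mES cells at 10 kb. At 200 kb it has 57.6% in heart, 57.8% in forebrain and 34.1% in mES cells.

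A tissue KOD around a region could be one that also reached over mES KOD, or one with no mES KOD in it. In heart, 994 regions (62.2% ± 3.04 of the bases) lay in a KOD that also held mES KOD bins, and in forebrain 1034 regions (67.0% ± 3.12 of the bases) did. Both held for 895 regions (57.7% ± 2.84 of the bases), and neither for 412 regions (28.5% ± 2.91 of the bases). Seen from the domains, 1066 of 2974 heart KODs (35.8%) and 1001 of 2620 forebrain KODs (38.2%) held at least 1 region. Of those, 519 in heart (48.7%) and 457 in forebrain (45.7%) held no mES KOD bin, whereas 41.2% of all heart KODs and 41.5% of all forebrain KODs held none. KODs with a region had a median length of 120 kb in heart and 130 kb in forebrain, and all KODs had a median of 70 kb in each. A longer KOD has more room for both a region and an mES KOD bin, so these shares depend on length. They also depend on the rule, because a KOD with a region must hold mES open bins and other KODs need not.

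Seen from mES cells, 874 of 3214 open stretches (27.2%) held a region. In these the regions took up a median of 32.9% of the stretch, and 174 stretches were made of 1 region from end to end. Of the regions, 770 (49.8%) touched 1 end of their mES open stretch, 601 (38.9%) lay inside it, and 174 (11.3%) spanned it.

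The regions were gene-rich. Of 20665 protein-coding genes, 1345 had the largest part of their body KOD in heart and forebrain and open in mES cells, which was 7.72% of the 17412 genes with a state in all 3 sources and 11% of the 12208 of those that were open in mES cells. Of the 1345, 935 lay wholly inside 1 region. No protein-coding gene reached into 415 regions (26.9%). By gene midpoint the regions held 15.9 ± 1.15 genes per Mb, against 6.41 ± 1.04 in bins KOD in all 3 sources (a difference of 9.46 ± 0.796, higher on 19 of 19 chromosomes). Bins of the opposite combination held 10.2 ± 0.877 genes per Mb, 5.70 ± 1.49 fewer than the regions, which were higher on 14 of 19 chromosomes. The whole map held 8.56 ± 0.580.

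Against bins open in all 3 sources, the regions were lower by gene midpoint and by gene start, and higher by any overlap. By gene start, the regions had 14.7 ± 0.616 per Mb and bins open in all 3 had 16.2 ± 0.720. The difference was −1.49 ± 0.776, with the regions higher on 7 of 18 chromosomes. By midpoint the regions had 15.9 genes per Mb and bins open in all 3 had 19.6 ± 0.786, a difference of −3.75 ± 1.22 with the regions higher on 2 of 19 chromosomes. Counting every gene with any base in the bins gave 24.1 per Mb in the regions and 22.9 per Mb in bins open in all 3, which reverses the order, and short stretches count a gene across their ends more often. Gene bodies covered 52.1% ± 2.08 of region bases, 67.9% ± 0.641 of bases open in all 3, and 37.4% ± 2.03 of bases KOD in all 3. Long noncoding RNA genes ran the other way, with 9.07 ± 0.460 per Mb in the regions and 7.51 ± 0.148 in bins open in all 3 (a difference of 1.56 ± 0.430, higher on 16 of 19 chromosomes). They numbered 8.83 ± 0.238 per Mb in bins KOD in all 3, a difference of 0.243 ± 0.486 from the regions that lies within its error, and 9.51 ± 0.406 in bins KOD in forebrain alone. For protein-coding genes, bins KOD in forebrain alone were denser still, with 22.7 ± 2.37 per Mb, and bins KOD in heart alone had 12.7 ± 0.961.

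**Figure D4:**
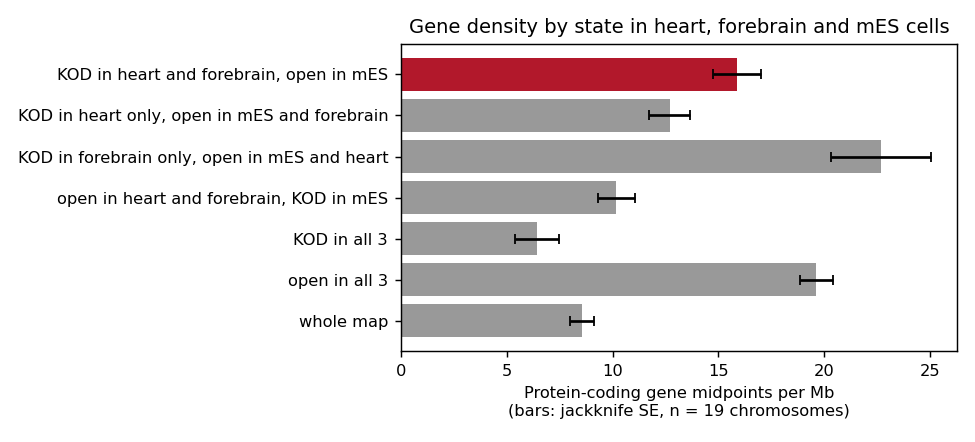
Protein-coding gene midpoints per Mb (horizontal axis) in the regions (red) and in bins with other combinations of states (grey), with jackknife standard errors over 19 chromosomes. The regions hold 15.9 per Mb, against 6.41 in bins KOD in all 3 sources and 19.6 in bins open in all 3.

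Genes of the regions had a median length of 15.3 kb, against 15.2 kb for genes KOD in all 3 sources, 17.5 kb for all genes, 18.9 kb for genes open in all 3 and 27.4 kb for genes open in both tissues and KOD in mES cells. Genes over 100 kb made up 6.62% of the genes of the regions, 7.11% of those open in all 3, 16.4% of those KOD in all 3, and 20.0% of those of the opposite combination.

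Their promoters lay between those of open genes and those of all genes in CpG content. RefSeq promoters were at hand for 1098 of the 1330 genes of the regions on the 18 chromosomes the table covers (82.6%). Of these, 650 (59.2% ± 1.99) were CpG-rich, defined as a GC content of at least 50% and at least 0.6 of the CpG expected from the base composition. The share was 64.8% ± 1.32 for genes open in all 3 sources (difference −5.62 ± 2.18, higher in the regions on 5 of 18 chromosomes). It was 44.7% ± 3.34 for genes of the opposite combination (difference 14.5 ± 3.44, higher on 12 of 18) and 47.3% ± 1.77 for all genes (difference 11.9 ± 2.46, higher on 14 of 18). The table covers 77.7% of the genes KOD in all 3 sources, which is too few for that comparison, so it is void. The median promoter of the regions had 18 CpG, against 20 for genes open in all 3 and 14 for all genes, and Bnip2, Hoxd1 and Dlx1 above lie over these medians.

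Short motifs were searched by letters on both strands of the same windows, and none of the 3 contains another. TATAAA was found in 11.2% ± 1.34 of promoters of the regions, 7.25% ± 0.356 of those open in all 3 and 13.5% ± 0.743 of all promoters. GGGCGG was found in 57.0% ± 2.12 of the regions' promoters, 61.5% ± 0.746 of those open in all 3 and 47.3% ± 1.39 of all. CCAAT was found in 41.7% ± 1.25, 37.9% ± 0.644 and 39.1% ± 0.642 of the same 3 sets. Of 1098 genes with a known start, 945 (86.1%) also started inside a region.

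Among developmental regulators, the homeobox family Dlx had states that differed between its gene pairs, and the Hox family had states that differed within clusters. Dlx genes act in limb, jaw and forebrain patterning and sit in neighbouring pairs. Of 6 Dlx genes open in mES cells and listed in all 3 sources, 4 were in the regions, beside 11% of all such genes. These 4 genes lay in 2 regions. The pairs Dlx1 with Dlx2 and Dlx3 with Dlx4 were KOD in heart and forebrain and open in mES cells over their whole bodies, whereas Dlx5 and Dlx6 were open in all 3 sources. Dlx1 and Dlx2 lay in a region of 110 kb at chr2:71510001-71620000, in a heart KOD of 300 kb and a forebrain KOD of 510 kb. Dlx3 and Dlx4 lay in a region of 50 kb, which was also the whole of the heart KOD, within a forebrain KOD of 180 kb. With 20 kb off the domain ends Dlx1 and Dlx2 kept the combination and Dlx3 and Dlx4 did not.

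All 39 Hox genes, which set position along the body axis, were open in mES cells, and 5 of them (12.8%, near the 11% of all genes open in mES cells) were KOD in heart and forebrain. Each stood at or next to an end of its cluster. Hoxb13 is the 5′ end and Hoxb1 with Hoxb2 the 3′ end of the cluster on chromosome 11, and the 7 genes between them were KOD in forebrain and open in heart. Hoxd1 is the 3′ end of the cluster on chromosome 2, and the other 8 Hoxd genes were open in all 3 sources. Hoxc13 is the 5′ end of the cluster on chromosome 15, where Hoxc12 was KOD in forebrain alone and the other 7 were open in all 3. No Hoxa gene was KOD in heart, and 3 of 11 were KOD in forebrain. Hoxd1 lay in a region of 190 kb that began within the cluster and ran on past Mtx2, in a heart KOD and a forebrain KOD of 880 kb each, of which 620 kb was also KOD in mES cells. Hoxc13 lay in a region of 20 kb and lost the combination when 20 kb were trimmed, and the other 4 kept it.

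Regulators of the studied organs were in the regions in small numbers. Of 28 forebrain transcription factors open in mES cells and listed in all 3 sources, 4 were KOD in both tissues, forebrain included, namely Dlx1, Dlx2, Gsx2 and Neurog1. Gsx2 patterns the ventral forebrain and Neurog1 drives neurogenesis, and Neurog1 lay in a region of 20 kb that was its whole mES open stretch inside a heart KOD of 530 kb and a forebrain KOD of 550 kb. Of 19 such cardiac transcription factors 2 were in the regions, Tbx2 and Gata4. Tbx2, which represses chamber genes in the atrioventricular canal, lay in a region of 130 kb, and Gata4 in one of 40 kb. The body of Gata4 was 71.0% KOD in heart, 98.5% KOD in forebrain and 83.9% open in mES cells, so its state is mixed. Of 16 contractile genes 2 were in the regions, Myl2 of the ventricular myosin and Tpm1, a tropomyosin, both over their whole bodies. Set beside the 11% of all genes open in mES cells, the shares of these 3 lists were 14.3%, 10.5% and 12.5%. With 20 kb trimmed, Neurog1 and Gata4 lost the combination.

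The other families of regulators are small, so their shares rest on few genes. For comparison, 11% of all genes open in mES cells and listed in all 3 sources were KOD in both tissues, and no list was tested. Fox genes had 5 of 33 open in mES cells (15.2%), namely Foxe1, Foxn4, Foxr1, Foxb1 and Foxd1. T-box genes had 2 of 9 (Tbx2 and Tbx21), Klf genes 2 of 11 (Klf7 and Klf14) and Gata genes 1 of 4 (Gata4). Lhx genes had 2 of 6, Lhx1 and Lhx5, which act in early brain and kidney development. None of 11 Sox, 3 Pax and 2 Irx genes open in mES cells was KOD in both tissues. The Wnt ligands had 3 of 13, Wnt3a, Wnt8a and Wnt8b, and the Frizzled receptors had 2 of 6, Fzd2 and Fzd3. The state of Klf7 is mixed, with 67.7% of its body KOD in heart, 54.4% open in mES cells and 32.9% inside regions. By gene midpoint the Klf list and the Frizzled list held 1 gene each. With 20 kb trimmed, both Klf genes, Lhx5, Wnt8a, Wnt8b, Fzd2, Fzd3 and Foxd1 lost the combination. Of 29 pluripotency genes, 20 were open in mES cells and listed in all 3 sources, and 1 of these was in the regions, Lin28a (2 pluripotency genes by gene midpoint).

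Keratins build the intermediate filaments of epithelia. Of 49 keratin genes, 11 were open in mES cells, and all 11 were KOD in heart and forebrain. Of all genes open in mES cells and listed in all 3 sources, 11% were. Another 31 were KOD in all 3 sources, and none was open in all 3. Of the 11, 9 lie on chromosome 11, from Krt222 and Krt24 to Krt12 and Krt42, and the other 2 are Krt8 and Krt18 on chromosome 15, the partner keratins of simple epithelia. They fall in only 3 regions, of 370 kb, 110 kb and 60 kb, so they are not 11 separate events. The Krt8 and Krt18 region, chr15:101990001-102050000, lay at the end of a heart KOD of 630 kb, of which 570 kb was also KOD in mES cells, and within a forebrain KOD of 540 kb. With 20 kb trimmed 7 of the 11 kept the combination, and Krt8, Krt18, Krt12 and Krt42 did not. Claudins, which seal epithelial junctions, had 4 of 16 (Cldn13, Cldn4, Cldn3 and Cldn14) in 2 regions. Of these 4 genes only Cldn4 kept the combination after trimming.

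Lists of basic cell functions had shares in the regions below, near and above the 11% of all genes open in mES cells. Not every member is a gene used by every cell. The members in the regions include Rpl3l, Eif4e1b and the immunoproteasome subunit Psmb9. The shares were 8.82% for proteasome subunits (3 of 34), 8% for RNA polymerase subunits (2 of 25), 11.6% for oxidative phosphorylation subunits (8 of 69) and 12.7% for mitochondrial ribosomal proteins (8 of 63). Ribosomal protein genes had 11 of 71 (15.5%) in 10 regions, among them Rpl11, Rps27l, Rpl26, Rpl23, Rpl19 and Rpl27. Translation initiation factors had 9 of 46 (19.6%), with Eif2s2, Eif6, Eif3b, Eif4g2, Eif5a and Eif1 among them. The spliceosome list had 5 of 28 (17.9%), and the housekeeping list 4 of 33 (12.1%), Ubb, Polr2a, Hnrnpk and Tuba1b. Polr2a, the largest subunit of RNA polymerase II, lay in a region of 40 kb, and Hnrnpk, an RNA-binding protein, in one of 280 kb. Tubulins had 5 of 17 (29.4%) in 2 regions, the gamma tubulins Tubg1 and Tubg2 on chromosome 11 and the alpha tubulins Tuba1b, Tuba1a and Tuba1c on chromosome 15. The tubulin region chr15:98920001-99090000 matched a heart KOD of 170 kb and lay in a forebrain KOD of 260 kb, neither with any mES KOD. With 20 kb trimmed, 8 of the 9 initiation factors, 6 of the 11 ribosomal proteins, 4 of the 5 spliceosome genes, 4 of the 5 tubulins and 2 of the 4 housekeeping genes kept the combination, and Polr2a and Tuba1b did not. At the other end, 1 of 30 cyclins and Cdks (Cdk12), 1 of 20 replication licensing genes (Cdt1) and 0 of 11 DNA methylation genes were in the regions.

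Genes for chromatin regulators, including some that act on H3K9, were among the members. Of 28 genes for H3K9 methylation and the nuclear lamina open in mES cells, 4 (14.3%, beside the 11% of all such genes) were in the regions. They were Kdm1a, a lysine demethylase, Cbx3, a heterochromatin protein that binds methylated H3K9, Prr14, which tethers heterochromatin to the lamina, and Banf1, which binds DNA at the lamina. Cbx3 lay in a region of 240 kb that was its whole mES open stretch, inside a heart KOD of 1790 kb and a forebrain KOD of 1670 kb. The list of histone deacetylases, demethylases and methyltransferases had 6 of 27 (22.2%), Hdac1, Kdm1a, Kdm2b, Kdm6b, Kmt5b and Kdm2a, and Kdm1a stands in both lists. With 20 kb trimmed, 3 of the 4 in the first list and 3 of the 6 in the second kept the combination. Kdm2a was 59.0% KOD in heart, 71.1% KOD in forebrain and 100% open in mES cells. Stat5a and Stat3 are transcription factors of cytokine signalling, of which Stat3 acts below LIF in mES cells. They were 2 of 14 members of the Stat, Jak and Socs list open in mES cells, and shared 1 region of 150 kb. With 20 kb trimmed Stat3 kept the combination and Stat5a did not.

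In all, 239 of the 1345 genes stood in at least 1 of 49 lists, beside 3491 of all 20665 protein-coding genes. These counts have unlike bases, because all 1345 were open in mES cells and many of the 20665 were not. Of 1100 olfactory receptors in the lists, for example, 42 were open in mES cells and listed in all 3 sources. Among the 38 lists with at least 10 members open in mES cells, 27 had a share in the regions above the 11% of all such genes, and 6 of the 49 lists had no member there. Neighbouring family members often share a region, so these shares are descriptions and no list was tested.

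**Figure D5:**
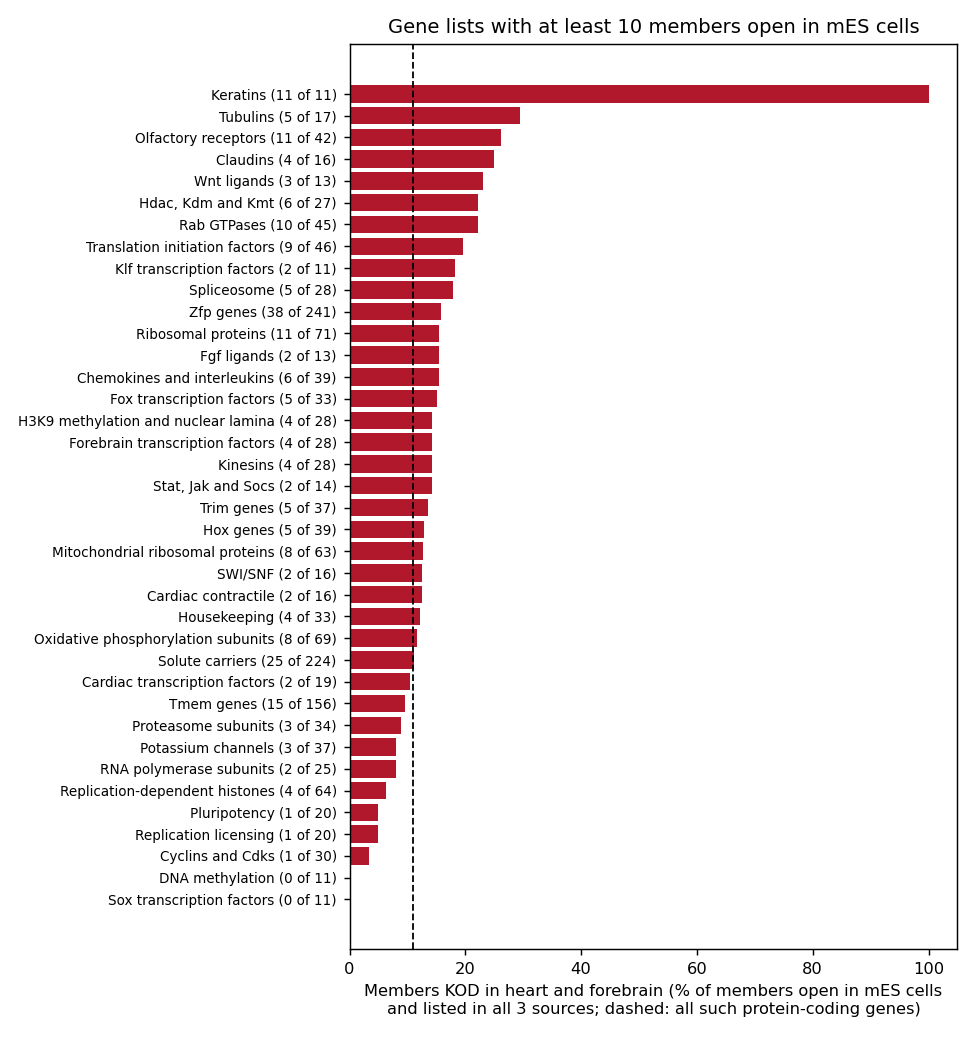
Share of each list's members open in mES cells and listed in all 3 sources that were KOD in heart and forebrain, in percent, for lists with at least 10 such members. Counts stand beside the names and the dashed line is the share of all such genes, 11%. Keratins reach 100% with 11 of 11, and the Sox and DNA methylation lists are at 0.

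Of 1136 annotated miRNA genes, 74 (6.51%) lay wholly inside the regions, 23 of them on chromosome 11. For comparison, 935 of 20665 protein-coding genes lay wholly inside, but a longer gene fits wholly inside less often. By midpoint, which does not depend on length in this way, the regions held 74 of 1135 miRNA genes and 1335 of 20539 protein-coding genes. The regions made up 3.50% of the map. Chromosome 11 held 20.0% of the region bases. Several share their mature RNA or their seed with a gene elsewhere that had other states. Mir9-1, one of 3 genes for the neural miR-9, was KOD in heart and forebrain and open in mES cells, whereas Mir9-3 was open in all 3 sources and Mir9-2 was open in both tissues and in no list in mES cells. Mir15a and Mir16-1, neighbours with the shared seed shown above and known to repress cell-cycle genes, lay in a region of 210 kb, and their relatives Mir15b and Mir16-2 on chromosome 3 were open in all 3. Mir7-1 lay in the region of Hnrnpk, its host gene, while Mir7-2 and Mir7b were open in all 3. Mir219a-1, a miRNA of neural cells, had the combination, and Mir219a-2 was open in all 3. Mir144 and Mir451a, which act in red blood cells, shared a region of 90 kb on chromosome 11, and Mir21a lay in one of 70 kb. miRNA genes numbered 0.880 ± 0.170 per Mb in the regions and 1.07 ± 0.0743 in bins open in all 3, which is within the error of the difference (−0.185 ± 0.193).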

How the data were processed

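The 33 CUT&RUN libraries (H3K9me2, Lamin B1 and control IgG) were processed with Bowtie2 2.5.0, cutadapt 4.2, Trim Galore, deepTools and Picard on mm10, per the submitters' processing notes. The domain caller, its thresholds and the use of IgG are not given in the sources used here. The 9 lists deposited by the authors, 3 per source, hold only the first and last base of each domain, on a grid of 10 kb, and no score. Each pools the replicates, so the depth behind a domain is unknown, no interval or floor for counts could be given, and no test was run. A looser threshold or a deeper library can lengthen a domain.

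Maps were painted in 10 kb bins over chromosomes 1 to 19 and genes were placed with the RefSeq table of GRCm38.p6, using Python 3.11.15, numpy 2.4.6, pandas 2.3.3 and matplotlib 3.10.9. A gene takes the state that covers most of its body. Scripts were checked on simulated maps. The regions and the gene lists were chosen with earlier results of these data known. Named genes are those wholly inside the 10 longest regions (at most 6 each), and list members in list order (at most 6 per list), and exceptions are said to be chosen after their values were seen: the 5 Mb windows with their genes, the miRNAs, neighbours of Dlx and Hox genes, Krt10 to Krt42, Krt8 and Krt18, and Mtx2. Promoter and start-site values use the 18 chromosomes on which the promoter table has entries. No genome sequence was used. One of the 10 longest regions is not reported here.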

Additional observations from a re-analysis of the deposited data

How the results depend on the processing

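Taking 20 kb off every domain end left 40.7 Mb, 600 regions and 663 genes, all of them among the 1345 (49.3%). Leaving out domains under 100 kb gave 706 regions. Counting genes by any overlap gave 24.1 per Mb. Joining tissue KODs 10 kb apart put 61.2% of region bases in KODs that also held mES KOD in both tissues. CpG-rich promoters were 38.8% under limits of 0.75 and 55% GC, against 44.1% for genes open in all 3 sources, and 55.5% for genes wholly inside 1 region. Gene density ranged over 15.0 to 16.2 per Mb with each chromosome left out, lowest without chromosome 11. Without chromosome 11 there were 1015 genes and 67.3 Mb, an alternative for genes chosen after seeing the data, as was leaving out short domains for regions and genes. By gene midpoint 44 of 49 lists stayed within 1.5 times their count, and after trimming 18 did, with 38 lower. No paired analysis was possible because each list pools the replicates of its source. With no replicate maps, no value here shows how a domain end would vary between animals or cultures.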

Other observations

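Some gene clusters outside the fixed lists also lay in the regions, and they were chosen after their values had been seen. The schlafen genes Slfn5, Slfn9, Slfn8, Slfn2, Slfn4 and Slfn3 on chromosome 11, known from lymphocytes, were KOD in heart and forebrain and open in mES cells over 100% of their bodies, and Slfn14 beside them was KOD in forebrain and open in heart. The acyl-CoA thioesterase genes Acot2, Acot1, Acot4, Acot3, Acot5 and Acot6 on chromosome 12 had the same combination over 100% of their bodies. On chromosome 17, so did the antigen-presentation genes H2-DMa, H2-DMb2, H2-DMb1 and H2-Ab1, and with them Psmb9, a subunit of the immunoproteasome that the proteasome list holds, while Tap1, next to Psmb9, was KOD in heart and open in forebrain by the largest part of its body. Ezh1, a methyltransferase of histone H3 lysine 27, and Ubtf, a factor of ribosomal RNA transcription, lay wholly inside regions on chromosome 11. Members of such families resemble each other, as do the alpha tubulins, the keratins and the olfactory receptors, so the placing of reads among near-identical copies could affect their states and was not tested.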
